A study of Mus musculus with 14 samples.

Results

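The 10 genes described here encode enzymes of glycolysis, the route by which cells break glucose down to pyruvate, together with lactate dehydrogenase A, which turns pyruvate into lactate. They are Hk1, Hk2, Gpi1, Pfkl, Aldoa, Tpi1, Pgk1, Pgam1, Pkm and Ldha, given here in pathway order. They were chosen by name, with earlier results of these data known. All 10 were found in all 8 RNA-seq libraries, among 38926 gene entries named by symbol in the LSK and MyePro files and 39179 entries named by Ensembl ID in the LT-HSC files.

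The study compared mouse bone marrow cells that lack Dpy30 with control cells. Dpy30 encodes a core subunit of the SET1 and MLL complexes, which place methyl groups on lysine 4 of histone H3. KO cells had the genotype Mx1-Cre; Dpy30F/- and control cells Mx1-Cre; Dpy30F/+, so the controls also carried the Cre transgene and 1 floxed allele. All 3 populations came from mixed chimeras: CD45.2+ donor marrow of either genotype was given to irradiated CD45.1+ hosts along with CD45.1+ competitor marrow from C57Bl/6J mice. The hosts received 4 injections of pIpC at 7.5 µg/g from week 7 after transplantation, and marrow was taken 2 weeks after the last one. Mx1-Cre is switched on by interferon, which pIpC induces in every group, so both genotypes had that stimulus. Long-term hematopoietic stem cells (LT-HSC) gave 2 libraries labelled KO and 2 labelled control, 1 of each from transplants 1 and 2, each a pool of 7 to 9 mice whose RNA was amplified before library preparation. LSK cells, lineage-negative Sca-1+ Kit+ cells that include stem cells and early multipotent progenitors, and MyePro cells, the more mature stage, gave 1 KO and 1 control library each, pooled from 2 to 3 mice without amplification. The labels do not define the MyePro gate. Replicates are pools, so the spread between LT-HSC libraries is a spread between pools and amplifications.

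Glycolysis yields ATP without oxygen and feeds carbon into the pentose phosphate pathway and, as pyruvate, into mitochondria. Its first step is catalysed by hexokinases, its committed step by phosphofructokinases and its last step by pyruvate kinase. For each of these steps mammals have several isozyme genes whose use differs between tissues. Quiescent stem cells of the marrow are known for relying on glycolysis, while their progeny draw more on mitochondrial respiration.

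No member differed as much as 2-fold between KO and control in any population, and none passed the test in LT-HSC. In MyePro cells Pkm stood at 176% of its control level, while Hk1 stood at 51.5% and Tpi1 at 59.8% of theirs, and these were the 3 members past 1.5-fold there. Over all 10249 genes averaging 5 CPM or more, 18.3% were past 1.5-fold higher and 22.4% lower in KO MyePro. The isozyme genes of the same steps differed more: Pklr, the pyruvate kinase gene of red cells and liver, was at 5.01% of its control level in KO MyePro and had 0 counts in KO LSK.

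The promoter windows of Hk1, Tpi1 and Pkm are shown because these members differed most between the MyePro libraries, Hk1 and Tpi1 in one direction and Pkm in the other. They are from RefSeq for GRCm38.p6 and run 5′ to 3′ from 250 bases before the annotated start through 50 bases from it on, written in lower case. Capitals mark matches, on either strand, to 2 motifs: ACGTG, which lies within the E-box CACGTG and the hypoxia response element, and GGGCGG, the GC box. Hk1 and Pkm each have 2 windows in RefSeq, of which the one with more ACGTG matches is shown, and Tpi1 has 1.
Hk1 (chr10:62340372-62340671, minus strand): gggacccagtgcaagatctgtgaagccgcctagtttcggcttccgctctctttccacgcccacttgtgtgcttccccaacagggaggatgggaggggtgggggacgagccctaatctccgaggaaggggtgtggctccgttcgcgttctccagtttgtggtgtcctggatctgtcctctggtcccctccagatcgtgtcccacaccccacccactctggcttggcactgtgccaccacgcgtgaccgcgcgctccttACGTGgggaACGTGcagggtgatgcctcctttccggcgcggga
Tpi1 (chr6:124814109-124814408, minus strand): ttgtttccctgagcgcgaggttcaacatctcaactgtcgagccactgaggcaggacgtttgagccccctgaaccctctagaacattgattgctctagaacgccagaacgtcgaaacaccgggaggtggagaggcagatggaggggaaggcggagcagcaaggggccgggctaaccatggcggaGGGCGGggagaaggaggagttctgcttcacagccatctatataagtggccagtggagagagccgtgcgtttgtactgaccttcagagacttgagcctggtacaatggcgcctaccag
Pkm (chr9:59656977-59657276, plus strand): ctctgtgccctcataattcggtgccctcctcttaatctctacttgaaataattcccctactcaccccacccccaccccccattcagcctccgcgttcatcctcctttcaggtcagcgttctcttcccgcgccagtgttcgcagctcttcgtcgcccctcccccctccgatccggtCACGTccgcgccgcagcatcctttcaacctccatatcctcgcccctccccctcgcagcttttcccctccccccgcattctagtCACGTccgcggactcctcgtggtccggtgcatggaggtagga
ACGTG occurred 2 times in the Hk1 window and 2 times in the Pkm window and had 0 matches in the Tpi1 window, which held 1 GGGCGG. Over the members, 8 of 15 windows held ACGTG, in 7 of the 10 genes, and 19.6% of all 32851 promoter windows held it. GGGCGG was found in 10 of 15 member windows, in 9 of the 10 genes, and in 35.7% of all windows. ACGTG was not found in the windows of Gpi1, Pfkl or Tpi1, nor GGGCGG in those of Hk1. These matches describe the letters of the windows and do not mark bound sites.

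Counts per member and library ran from 156 (Pgam1 in the LT-HSC control of transplant 2) to 23005 (Ldha in control MyePro). LT-HSC libraries held 38060087 to 85499797 gene counts and the LSK and MyePro libraries 6130320 to 20820762, with the lowest depth in KO LSK. Mitochondrially encoded genes took 48.9% to 68.0% of the gene counts in LT-HSC (highest in the library labelled KO of transplant 1) and 2.76% to 5.85% in LSK and MyePro. Levels are CPM, gene counts scaled to 1e6 per library after TMM normalization. LT-HSC was scaled apart from LSK and MyePro, so levels are not comparable between those sets. CPM is not corrected for transcript length, so levels are not compared between genes either. All 8 stem cell markers checked were detected in every library, with a summed level of 1458 CPM in KO LSK against 1656 CPM in control LSK and 779 CPM in KO MyePro against 757 CPM in control MyePro. The 8 myeloid progenitor markers summed to 6693 CPM in KO MyePro and 11307 CPM in control MyePro, and to 2937 CPM in KO LSK and 3223 CPM in control LSK. Mpo, the myeloperoxidase gene, held the largest part of these sums in control, at 2109 CPM in KO MyePro against 6546 CPM in control MyePro and 980 CPM in KO LSK against 2028 CPM in control LSK. The other markers did not all follow it: 6 of the 8 were higher in KO LSK (all but Mpo and Prtn3) and 4 of the 8 in KO MyePro (Ctsg, Cebpa, Ms4a3 and Fcgr3). Dpy30 itself stood at 41.7 CPM in KO LSK against 78.0 CPM in control LSK, and at 51.6 CPM in KO MyePro against 116 CPM in control MyePro. In LT-HSC it stood at 14.1 and 4.67 CPM in the libraries labelled KO of transplants 1 and 2, against 12.9 and 8.43 CPM in the controls, so the first of these libraries was not low in Dpy30. Directions given for LT-HSC rest on these labels, and sex-linked genes also differed between the groups so labelled, as given with Pgk1 below.

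**Figure D1:**
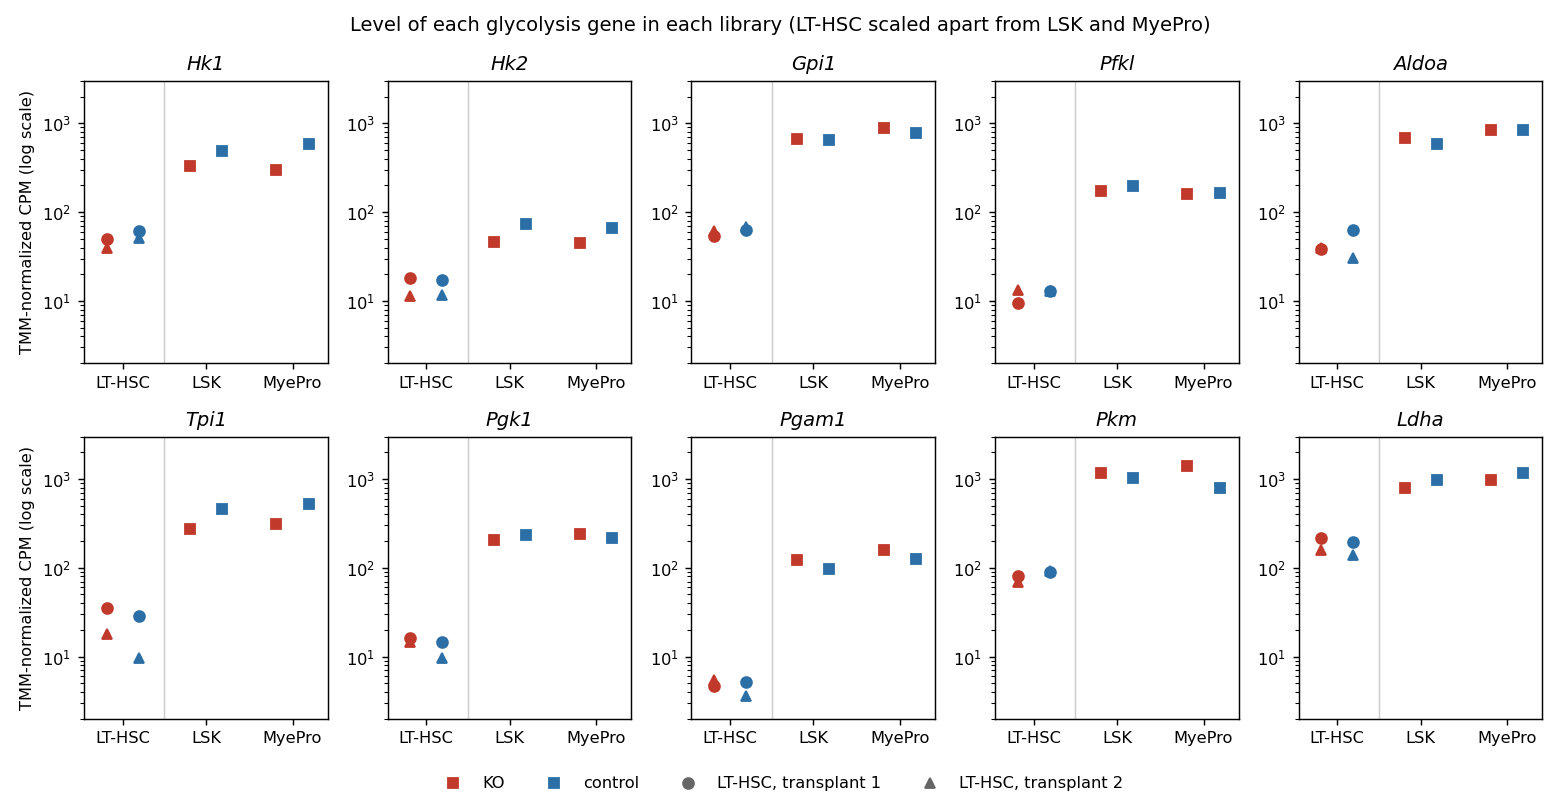
Level of each of the 10 genes in each library, as TMM-normalized CPM on a log axis, with KO left of control in each population. In LT-HSC, circles are transplant 1 and triangles transplant 2, and the grey line separates these libraries from LSK and MyePro, which were scaled apart. KO and control lie close together in most panels, with the widest gaps in MyePro for Hk1 (299 against 581 CPM) and Pkm (1382 against 785 CPM).

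The hexokinases, which trap glucose in the cell as glucose 6-phosphate, were lower in KO than in control LSK and MyePro. Hk1 (ENSMUSG00000037012, chr10:62268855-62379920), the hexokinase that sits on the outer mitochondrial membrane in most tissues, stood at 299 CPM in KO MyePro and 581 CPM in control MyePro (log2 ratio -0.96, 95% interval -1.01 to -0.90). In LSK it stood at 333 CPM in KO and 484 CPM in control (log2 ratio -0.54). With 1 library per group in LSK and MyePro there is no test, and these intervals cover counting error only. Hk2 (ENSMUSG00000000628, chr6:82725025-82774454), the insulin- and hypoxia-responsive isozyme, stood at 45.8 CPM in KO LSK and 72.9 CPM in control LSK (log2 ratio -0.67, interval -0.86 to -0.49), and at 45.2 CPM in KO MyePro and 65.5 CPM in control MyePro (log2 ratio -0.54). Both hexokinases thus had intervals below 0 in both populations. For Hk1 the LT-HSC libraries labelled KO held 49.9 and 39.7 CPM against 61.9 and 51.0 CPM in the controls, with both libraries labelled KO below both controls. Its log2 fold change there was -0.33 ± 0.27 (SE, n = 2 per group). Hk2 held 18.1 and 11.3 CPM in the libraries labelled KO against 17.4 and 11.7 CPM in the controls, a log2 fold change of 0.02 ± 0.42, and the libraries ordered by transplant rather than by genotype.

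Phosphoglucose isomerase and phosphofructokinase prepare the sugar for cleavage, and of their genes the members Gpi1 and Pfkl differed little. Gpi1 (ENSMUSG00000036427, chr7:34201327-34230336), the isomerase gene, stood at 897 CPM in KO MyePro against 790 CPM in control MyePro (log2 ratio 0.18) and at 661 CPM in KO LSK against 642 CPM in control LSK (0.04, interval -0.01 to 0.09). In LT-HSC its levels were 53.7 and 60.7 CPM in the libraries labelled KO and 63.8 and 68.5 CPM in the controls, again both below both, with a log2 fold change of -0.21 ± 0.25. Pfkl (ENSMUSG00000020277, chr10:77986947-78009807), the liver-type subunit of the enzyme that commits sugar to glycolysis, stood at 172 CPM in KO LSK against 197 CPM in control LSK (log2 ratio -0.20) and at 161 CPM in KO MyePro against 165 CPM in control MyePro (-0.04, interval -0.12 to 0.05). Its LT-HSC levels were 9.62 and 13.3 CPM in the libraries labelled KO and 13.0 and 12.9 CPM in the controls, which overlap. For Gpi1 in LSK and Pfkl in MyePro the counting interval held 0.

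Aldolase and triose phosphate isomerase split the sugar and bring both pieces to one form. Aldoa (ENSMUSG00000030695, chr7:126795234-126800994), the aldolase of muscle and red cells, stood at 690.02 CPM in KO LSK against 581 CPM in control LSK (log2 ratio 0.25, interval 0.20 to 0.30). The MyePro levels were 845 CPM in KO and 834 CPM in control, a log2 ratio of 0.02 whose interval, -0.02 to 0.06, held 0. The LT-HSC libraries did not order by genotype: Aldoa held 38.5 and 39.9 CPM in the libraries labelled KO against 63.6 and 30.6 CPM in the controls. Its log2 ratio was -0.72 within transplant 1 and 0.38 within transplant 2. Tpi1 (ENSMUSG00000023456, chr6:124810586-124814158), the isomerase gene, was at about the same fraction of control in both progenitor populations: 272 CPM in KO LSK against 455 CPM in control LSK, and 315 CPM in KO MyePro against 526 CPM in control MyePro. Both pairs gave 59.8% of the control level and a log2 ratio of -0.74, with intervals of -0.82 to -0.67 in LSK and -0.80 to -0.69 in MyePro. In LT-HSC Tpi1 held 35.0 and 18.1 CPM in the libraries labelled KO and 28.3 and 9.73 CPM in the controls. There it was on the other side of 0, with log2 ratios of 0.31 and 0.89 within transplants 1 and 2, but the spread between transplants was wider than that between genotypes and the fitted value was 0.48 ± 0.56.

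The payoff steps that follow make ATP and rearrange the phosphate. Pgk1 (ENSMUSG00000062070, chrX:106187100-106203699), the X-linked gene of phosphoglycerate kinase, was slightly lower in KO LSK and slightly higher in KO MyePro than in control: 206 CPM against 231 CPM in LSK (log2 ratio -0.17, interval -0.26 to -0.08), and 237 CPM against 215 CPM in MyePro (0.14, interval 0.07 to 0.21). Both libraries labelled KO in LT-HSC lay above both controls, at 16.4 and 14.6 CPM against 14.6 and 9.59 CPM, with a log2 fold change of 0.36 ± 0.39. The closest pair of these libraries were nearly equal, and Pgk1 is on the X chromosome while the LT-HSC groups differed in their sex-linked genes. Xist, the RNA of the inactive X, stood at 2165 and 1504 CPM in the libraries labelled KO and at 239 and 149.6 CPM in the controls, and Y-linked Kdm5d had 0 counts in both libraries labelled KO against 29.8 and 19.2 CPM in the controls. The other Y-linked genes checked were at 0.101 and 0.0587 CPM (Eif2s3y), 0 and 0.0294 CPM (Ddx3y) and 1.35 and 1.82 CPM (Uty) in the libraries labelled KO, against at least 8.71 CPM in each control. All 4 LSK and MyePro libraries held Kdm5d at 19.7 to 29.0 CPM and Xist at no more than 0.613 CPM. These differences ran along the genotype labels in LT-HSC. There, for every gene, a difference tied to the labelled genotype and one tied to the sex-linked difference cannot be told apart. Their part in the values of Pgk1 and of the other members was not tested. Pgam1 (ENSMUSG00000011752, chr19:41911871-41918665), the phosphoglycerate mutase gene, stood at 121 CPM in KO LSK against 96.8 CPM in control LSK and at 159 CPM in KO MyePro against 124 CPM in control MyePro, log2 ratios of 0.32 and 0.35. Its levels in LT-HSC were 4.66 and 5.45 CPM in the libraries labelled KO and 5.20 and 3.61 CPM in the controls. An entry named Pgam1-ps2, a copy that could share reads with it, held 10.8% to 18.1% as many counts as Pgam1 in LT-HSC and 2.73% to 5.62% in LSK and MyePro. With the named copies added to Pgam1 the log2 ratios were 0.29 in LSK and 0.36 in MyePro.

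Pkm and Ldha end the pathway. Pkm (ENSMUSG00000032294, chr9:59656576-59679372), whose 2 splice forms M1 and M2 are not separated by counts per gene, encodes the pyruvate kinase of most tissues. It stood at 1382 CPM in KO MyePro against 785 CPM in control MyePro (log2 ratio 0.82, interval 0.78 to 0.85), the highest ratio among the members in that comparison. In LSK the level was 1165 CPM in KO and 1024 CPM in control (log2 ratio 0.19, interval 0.15 to 0.23). LT-HSC showed the opposite order, with 80.0 and 69.7 CPM in the libraries labelled KO against 88.7 and 91.4 CPM in the controls, both below both, and a log2 fold change of -0.27 ± 0.24. Ldha (ENSMUSG00000063229, chr7:46842274-46855627) stood at 784 CPM in KO LSK against 969 CPM in control LSK, and at 968 CPM in KO MyePro against 1179 CPM in control MyePro, with log2 ratios of -0.30 and -0.28. In LT-HSC it held 218 and 158 CPM in the libraries labelled KO and 194 and 140.05 CPM in the controls, a log2 fold change of 0.17 ± 0.30. Each transplant showed the same small excess, and the transplants differed from each other by more.

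Of the 10 members, 0 passed an adjusted p under 0.05 in LT-HSC (quasi-likelihood test of edgeR, Benjamini-Hochberg adjusted over 12844 genes; adjusted p = 0.999 for each). DESeq2 and limma-voom also called 0 of them. At an unadjusted p under 0.05 in the edgeR test there were 0 members, where 130 of all 12844 genes were higher and 164 lower. Past the adjusted threshold in that test, 0% of all genes were called higher and 0.0156% (2 genes) lower. Those 2 were the Y-linked genes Kdm5d and Eif2s3y (adjusted p = 0.0433 for each in the same test), so no autosomal gene was called. Ddx3y, Uty and Xist, at log2 fold changes of -9.26, -3.46 and 3.24, were not called (adjusted p = 0.190, 0.438 and 0.210 in edgeR's quasi-likelihood test). With 2 libraries per group the test thus missed differences far wider than those of the members, and 0 calls do not show equal levels. Both libraries labelled KO lay above both controls for 1 member (Pgk1) and below them for 3 (Hk1, Gpi1 and Pkm), where the shares over all genes were 13.8% above and 13.9% below. The median log2 fold change of the members was -0.08, beside 0.00 for all genes, and without the control library of transplant 1 it was 0.35. For Hk2, Tpi1 and Ldha both libraries of transplant 1 lay above both of transplant 2. The share of all genes with that order was not counted, so it is not read as particular to the members. With transplant as a replicate block no member was called either, and the smallest member p was that of Tpi1 (unadjusted p = 0.0881 and Benjamini-Hochberg adjusted p = 1.00 in edgeR's quasi-likelihood test).

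In LSK 0 of 10 members passed a 2-fold difference in either direction, where 4.78% of the 10299 genes averaging 5 CPM or more were higher and 5.67% lower in KO. In MyePro the members again gave 0 in both directions, where 10.7% of 10249 genes were higher and 8.63% lower. The median log2 ratio of the members was -0.18 in LSK, beside -0.06 for all genes, and -0.01 in MyePro, beside -0.12 for all genes. Scaling by library totals in place of TMM moved the all-gene median to 0.09 in LSK, -0.04 in MyePro and -0.35 in LT-HSC, and under it the members' medians were -0.02 in LSK, 0.07 in MyePro and -0.46 in LT-HSC. Past 1.5-fold there were 0 members higher and 2 lower in KO LSK (Hk2 and Tpi1), where 10.5% of all genes were higher and 13.5% lower. Counting intervals lay above 0 for 3 members and below 0 for 6 in LSK, where those of all genes lay above 0 for 27.1% and below 0 for 37%. In MyePro they lay above 0 for 4 members and below 0 for 4, beside 33.1% and 46.7% of all genes. An interval away from 0 was therefore common among all genes. Hk1, Hk2, Tpi1 and Ldha were below 0 in both populations, and Pgam1 and Pkm above 0 in both. The share of all genes on the same side in both populations was not counted, so this is not read as particular to the members. The summed level of the 10 genes was close between genotypes: 4451 CPM in KO LSK against 4753 CPM in control LSK, 5308 CPM in KO MyePro against 5265 CPM in control MyePro, and 524 and 431 CPM in the libraries labelled KO against 550.1 and 429 CPM in the controls of LT-HSC. Members with the most counts weigh most in this sum, and higher and lower members offset each other in it. Close sums therefore do not show equal levels of each gene.

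**Figure D2:**
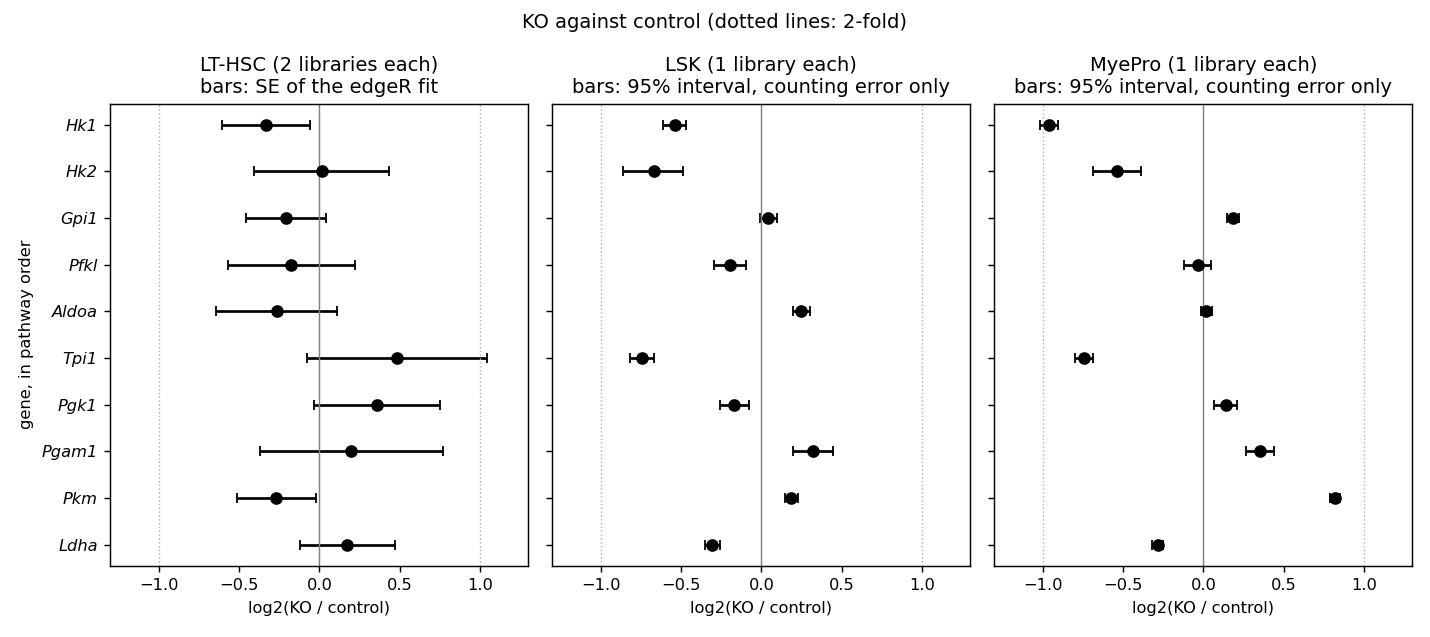
Log2 ratio of KO to control for each gene, in pathway order from top to bottom, in LT-HSC, LSK and MyePro. Bars are the SE of the edgeR fit in LT-HSC (2 libraries per genotype) and 95% intervals for counting error in LSK and MyePro (1 library per genotype), and dotted lines mark a 2-fold difference. No point lies beyond those lines, and the farthest from 0 in MyePro are Hk1 at -0.96 and Pkm at 0.82.

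Markers of other lineages differed between the same libraries. The 11 erythroid markers, all detected, summed to 932 CPM in KO MyePro against 6339.7 CPM in control MyePro, and to 816 CPM in KO LSK against 1853 CPM in control LSK. The 8 megakaryocyte markers, all detected, summed to 1519.5 CPM in KO MyePro against 177 CPM in control MyePro, with 707 CPM in KO LSK and 686 CPM in control LSK. Mature neutrophil markers summed to 615 CPM in KO MyePro against 26.8 CPM in control MyePro, with Camp of the 8 at 0 in both, and to 169 CPM in KO LSK (Ltf at 0) against 11.4 CPM in control LSK (S100a8, S100a9 and Retnlg at 0). The KO MyePro sum rested on Lcn2 (314 CPM), S100a8 (226 CPM) and S100a9 (64.0 CPM). Ltf, Camp, Ngp, Mmp8 and Retnlg each stood at no more than 6.83 CPM in any LSK or MyePro library. The 6 T and NK cell markers summed to 637 CPM in KO MyePro (Cd3g at 0) against 211 CPM in control MyePro (Cd2 at 0), and to 574 CPM in KO LSK against 203 CPM in control LSK (Cd3e and Cd3g at 0). These last sums rested mostly on Nkg7 (514 CPM in KO MyePro against 201 CPM in control MyePro) and Gzmb (104 CPM against 9.43 CPM), genes of cytotoxic granules. Klrb1c, another marker of this list, stood at 17.7 CPM in KO MyePro against 0.154 CPM in control MyePro. In LSK it stood at 27.4 CPM in KO against 0.884 CPM in control. The T cell markers Cd3e, Cd3g and Cd2 stood at no more than 1.05 CPM in any LSK or MyePro library. KO MyePro thus had a lower erythroid sum and higher megakaryocyte and neutrophil sums than control MyePro. Stromal and endothelial markers (6) summed to 213 CPM in KO MyePro (Lepr at 0) against 84.0 CPM in control MyePro. Pecam1 held 160 CPM and 80.5 CPM of these sums. Macrophage and dendritic markers (5 with an entry, Siglech at 0 in both) summed to 269 CPM in KO MyePro against 159 CPM in control MyePro. In LSK the macrophage and dendritic sum had the other order, at 202 CPM in KO (Siglech at 0) against 465 CPM in control. That order rested on Cd74 (43.0 CPM in KO LSK against 384 CPM in control LSK). Of the 5 markers, 3 were higher in KO LSK (Csf1r, Cd68 and Itgax) and 2 lower. In KO MyePro 2 were higher (Cd68 and Itgax) and 2 lower (Csf1r and Cd74), so the sums do not speak for the whole list. In bulk RNA, fewer cells of a type and less RNA per cell cannot be told apart, and the part of these markers in the glycolysis values was not tested.

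The comparison of MyePro with LSK follows the genes through the maturation of progenitors. Within each genotype most members were higher in MyePro than in LSK, by small amounts, but these were not all the same members. In KO cells 7 of 10 had counting intervals above 0 and 1 (Hk1) below, where 26.1% of all genes were above and 22.7% below. In control cells 6 were above and 4 below, beside 43.1% and 29.8% of all genes. The median log2 ratio of the members was 0.23 in KO and 0.24 in control, beside 0.01 and 0.08 for all genes. Members past 2-fold numbered 0 in either genotype and direction. Over all genes, 3.28% passed 2-fold upward and 1.49% downward in KO cells, and 3.17% upward and 6.87% downward in control cells. These ratios use the same 4 libraries as the genotype ratios above. With library totals the members' medians were 0.08 in KO and 0.17 in control.

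Gpi1, Aldoa, Tpi1, Pgam1 and Ldha were higher in MyePro in both genotypes. Gpi1 had log2 ratios of 0.44 in KO and 0.30 in control, Pgam1 of 0.39 and 0.36, Ldha of 0.30 and 0.28, Tpi1 of 0.21 in each, and Aldoa of 0.29 in KO and 0.52 in control. Hk2 and Pfkl were near or below their LSK level in both, at -0.02 and -0.10 in KO and -0.15 and -0.26 in control. Hk1, Pgk1 and Pkm had opposite signs in the genotypes. Pkm stood at 1382 CPM in KO MyePro against 1165 CPM in KO LSK (log2 ratio 0.25), and at 785 CPM in control MyePro against 1024 CPM in control LSK (-0.38). Hk1 had a log2 ratio of -0.16 in KO (299 CPM in MyePro against 333 CPM in LSK) and of 0.26 in control (581 CPM against 484 CPM). For Pgk1 the ratios were 0.20 in KO and -0.10 in control. The KO ratio minus the control ratio was 0.63 for Pkm (interval 0.58 to 0.68), -0.42 for Hk1 (interval -0.51 to -0.33) and 0.31 for Pgk1 (interval 0.19 to 0.42), with intervals for counting error, and with 1 library per group these differences were not tested across samples. For the other members that difference lay between -0.23 (Aldoa) and 0.16 (Pfkl).

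**Figure D3:**
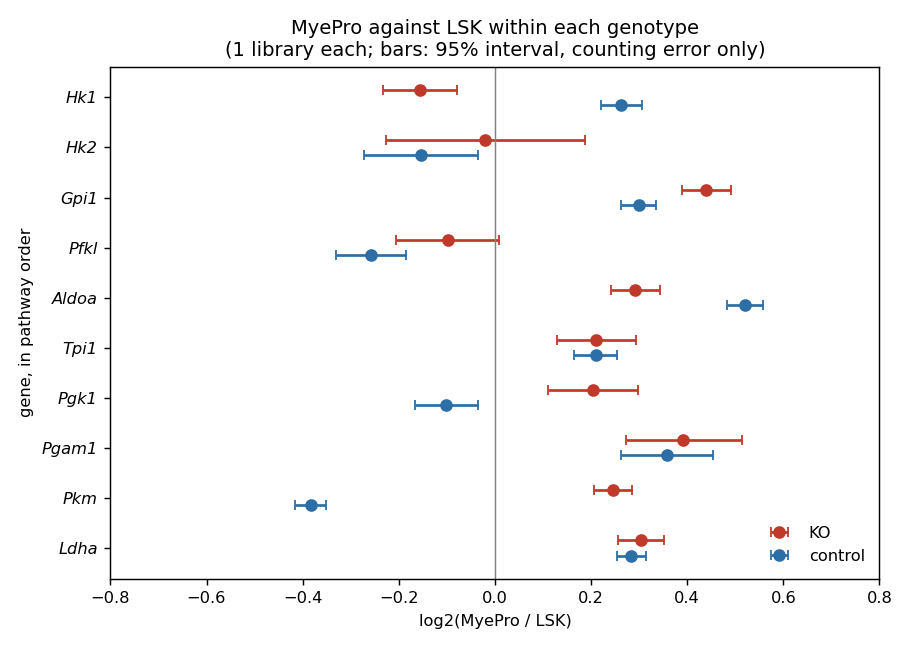
Log2 ratio of MyePro to LSK for each gene in KO (red) and control (blue) cells, with 95% intervals for counting error (1 library per group). Most points lie right of 0. Red and blue lie on opposite sides of 0 for Hk1, Pgk1 and Pkm.

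The isozyme genes of the same steps, which are not among the 10, showed how each step's counts divided. Shares are not corrected for transcript length, so they are read across libraries and not between isozymes. At the pyruvate kinase step Pklr supplied 0.592% of the Pkm and Pklr counts in KO MyePro (exact 95% interval 0.479% to 0.724%) against 17.3% in control MyePro (16.8% to 17.9%). In KO LSK it supplied 0 of 7832 counts, with an exact upper limit of 0.0471%, against 3.19% in control LSK. The KO libraries of both progenitor populations thus had nearly all their pyruvate kinase counts on Pkm. As a level, Pklr stood at 8.23 CPM in KO MyePro against 164 CPM in control MyePro (log2 ratio -4.29). In LSK it was at 0 counts in KO against 33.7 CPM in control, at least 75.5-fold lower when KO LSK is set to a floor of 3 counts. LT-HSC shares were 1.15% and 1.27% in the libraries labelled KO and 4.80% and 0.353% in the controls, so there the groups overlapped. Pklr is itself expressed in the erythroid lineage, whose markers differed as given above. The part of that difference in the Pklr values was not tested. The summed level of Pkm and Pklr was 1390.3 CPM in KO MyePro against 949 CPM in control MyePro.

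Phosphofructokinase counts divided differently between its other subunits, and the Pfkl share differed less. Pfkm, the muscle-type subunit gene, supplied 13.2% of that step's counts in KO MyePro against 32.2% in control MyePro, and Pfkp, the platelet-type subunit gene, 36.7% against 20.8%. Pfkl supplied 50.01% in KO MyePro and 47.0% in control MyePro. The levels behind this were 42.6 CPM in KO and 113 CPM in control for Pfkm (log2 ratio -1.41) and 118 CPM in KO and 73.0 CPM in control for Pfkp (0.70). In LSK the Pfkm share was 18.2% in KO against 23.7% in control and the Pfkp share 26.2% against 21.3%. LT-HSC shares of Pfkm ran from 14.9% to 20.9% in the libraries labelled KO and from 9.28% to 21.9% in the controls. At the hexokinase step Hk3, the isozyme of myeloid cells, was lower in KO along with Hk1 and Hk2, at 82.0 CPM in KO LSK against 174 CPM in control LSK (log2 ratio -1.08) and 100.1 CPM in KO MyePro against 233 CPM in control MyePro (-1.22). The summed level of Hk1, Hk2 and Hk3 was 461 CPM in KO LSK against 731 CPM in control LSK, and 444 CPM in KO MyePro against 880 CPM in control MyePro. In LT-HSC the hexokinase sum was 76.1 and 54.5 CPM in the libraries labelled KO against 82.9 and 68.3 CPM in the controls. Aldoc, the brain-type aldolase gene, supplied 3.16% of aldolase counts in KO MyePro and 0.337% in control MyePro, at 27.6 CPM against 2.82 CPM.

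**Figure D4:**
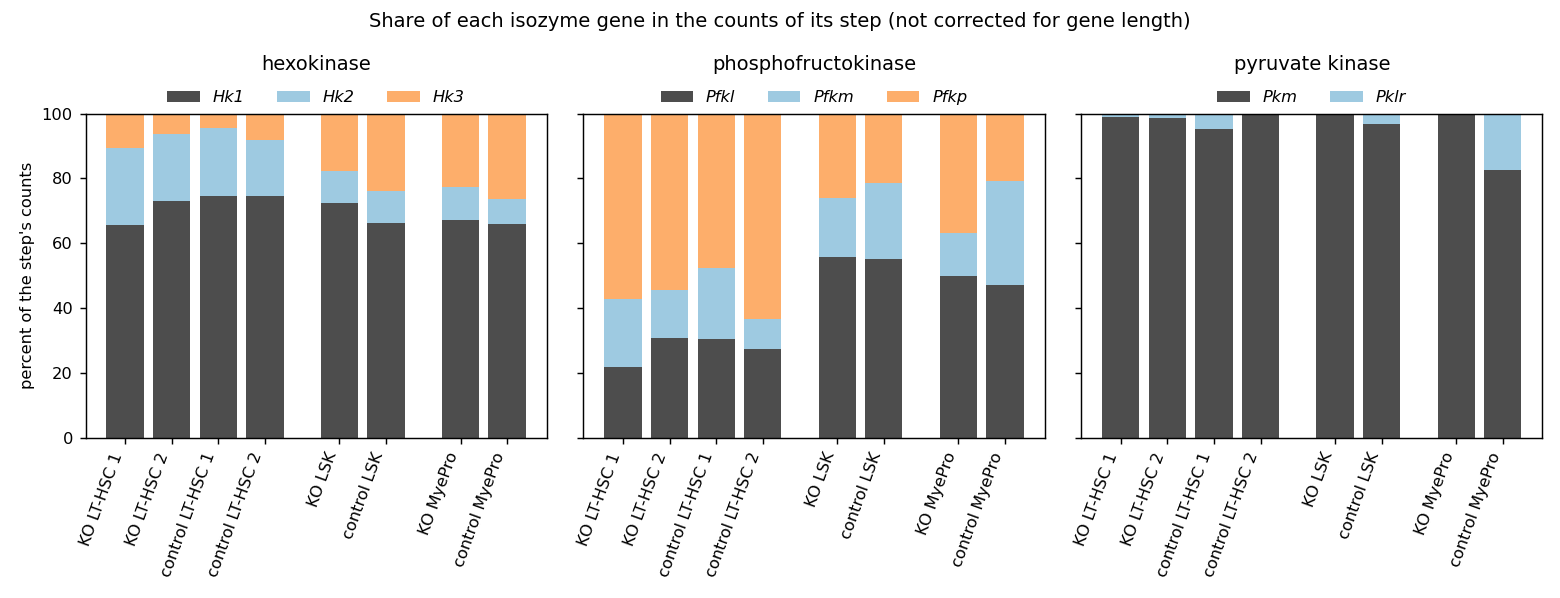
Percent of the counts of each step that came from each isozyme gene, per library, for hexokinase, phosphofructokinase and pyruvate kinase. Each bar sums to 100 percent, KO libraries stand left of control within each population, and shares are not corrected for gene length. Pklr fills 17.3% of the control MyePro bar and 0.592% of the KO MyePro bar.

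Around the 10 members, 6 lists of the wider pathway, chosen with earlier results of these data known, held 43 measured genes. Of these, 0 were past 2-fold higher and 5 (11.6%) lower in KO LSK, where the shares over all genes were 4.78% and 5.67%. In KO MyePro 4 (9.30%) were higher and 6 (14.0%) lower, beside 10.7% and 8.63% of all genes. Of 15 other glycolytic isozymes and enzymes, 10 reached the level minimum, of which 0 were higher and 3 lower in KO LSK (Pklr, Hk3 and Eno3) and 1 was higher (Aldoc) and 3 lower (Pklr, Pfkm and Hk3) in KO MyePro. Their median log2 ratios were -0.15 in LSK, which is the same with Pklr set at its bound, and 0.36 in MyePro. Eno3, the muscle enolase gene, stood at 3.27 CPM in KO LSK against 6.93 CPM in control LSK. Of 6 transport genes 5 were measured. Slc16a1, the gene of the lactate and pyruvate carrier MCT1, was lower in both populations, at 42.3 CPM in KO LSK against 191 CPM in control LSK (log2 ratio -2.17) and 98.9 CPM in KO MyePro against 320 CPM in control MyePro (-1.69). Slc2a1, the gene of the glucose carrier GLUT1, was higher in KO MyePro at 49.0 CPM against 16.3 CPM in control MyePro (1.58), with a log2 ratio of 0.61 in LSK. The medians of the transport list were 0.07 in LSK and -0.10 in MyePro. No gene of the 6 lists passed the LT-HSC test.

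Among regulators, 10 of 15 were measured, with 0 past 2-fold in KO LSK and 2 higher and 1 lower in KO MyePro. Mycn stood at 48.4 CPM in KO MyePro against 8.51 CPM in control MyePro (log2 ratio 2.49), and Hif1a, a transcription factor that induces glycolytic genes in low oxygen, at 103 CPM against 46.1 CPM (1.16). Myc, another activator of glycolytic genes, was lower, at 185 CPM in KO MyePro against 513 CPM in control MyePro (-1.47). The list's medians were 0.33 in LSK and 0.33 in MyePro. In LSK the same 3 genes had log2 ratios of 0.77 (Mycn), 0.73 (Hif1a) and -0.57 (Myc). LT-HSC levels of Mycn were 51.6 and 67.4 CPM in the libraries labelled KO against 45.4 and 38.7 CPM in the controls, with both above both, and the test did not call it (log2 fold change 0.50 ± 0.28, Benjamini-Hochberg adjusted p = 0.999 in edgeR's quasi-likelihood test).

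Genes that carry pyruvate into mitochondria and oxidise it numbered 7, all measured. In KO MyePro 6 of the 7 had negative log2 ratios (median -0.56) and 1, Pdha1, was past 2-fold lower, where 57.3% of all genes were negative and 8.63% past 2-fold lower. Pdha1, the X-linked gene of a subunit of pyruvate dehydrogenase, stood at 99.4 CPM in KO MyePro against 219 CPM in control MyePro (log2 ratio -1.14) and at 104 CPM in KO LSK against 181 CPM in control LSK (-0.80). The list's median was -0.07 in LSK, with 0 past 2-fold. Comparing MyePro with LSK, all 7 had positive log2 ratios in control cells (median 0.66), and in KO cells 5 were positive (median 0.07). Over all genes 57.9% were positive in control cells and 52.0% in KO cells. Mpc1, a subunit of the mitochondrial pyruvate carrier, was the one gene of all these lists at an unadjusted p under 0.05 in LT-HSC, at 1.79 and 2.55 CPM in the libraries labelled KO against 0.281 and 0.254 CPM in the controls, and it was not called (Benjamini-Hochberg adjusted p = 0.999 in edgeR's quasi-likelihood test). Over all 12844 genes tested there, 130 were higher and 164 lower at that unadjusted p in the same test.

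The pentose phosphate pathway, which branches off at glucose 6-phosphate, had 7 genes measured of 7 and 0 past 2-fold in KO against control. Its median was -0.04 in LSK and -0.16 in MyePro. Tkt, the transketolase gene, stood at 765 CPM in KO LSK against 1143 CPM in control LSK (log2 ratio -0.58) and at 838 CPM in KO MyePro against 1486 CPM in control MyePro (-0.83). Taldo1, the transaldolase gene, stood at 325 CPM in KO LSK against 307 CPM in control LSK and at 495 CPM in KO MyePro against 518 CPM in control MyePro. All 7 genes were higher in MyePro than in LSK in both genotypes, with medians of 0.45 in KO and 0.76 in control. Of 7 gluconeogenesis genes 4 were measured in each genotype comparison. Fbp1, the fructose bisphosphatase gene, was lower in KO LSK at 4.46 CPM against 15.6 CPM in control LSK (log2 ratio -1.77), and in MyePro 0 of the 4 were past 2-fold.

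**Figure D5:**
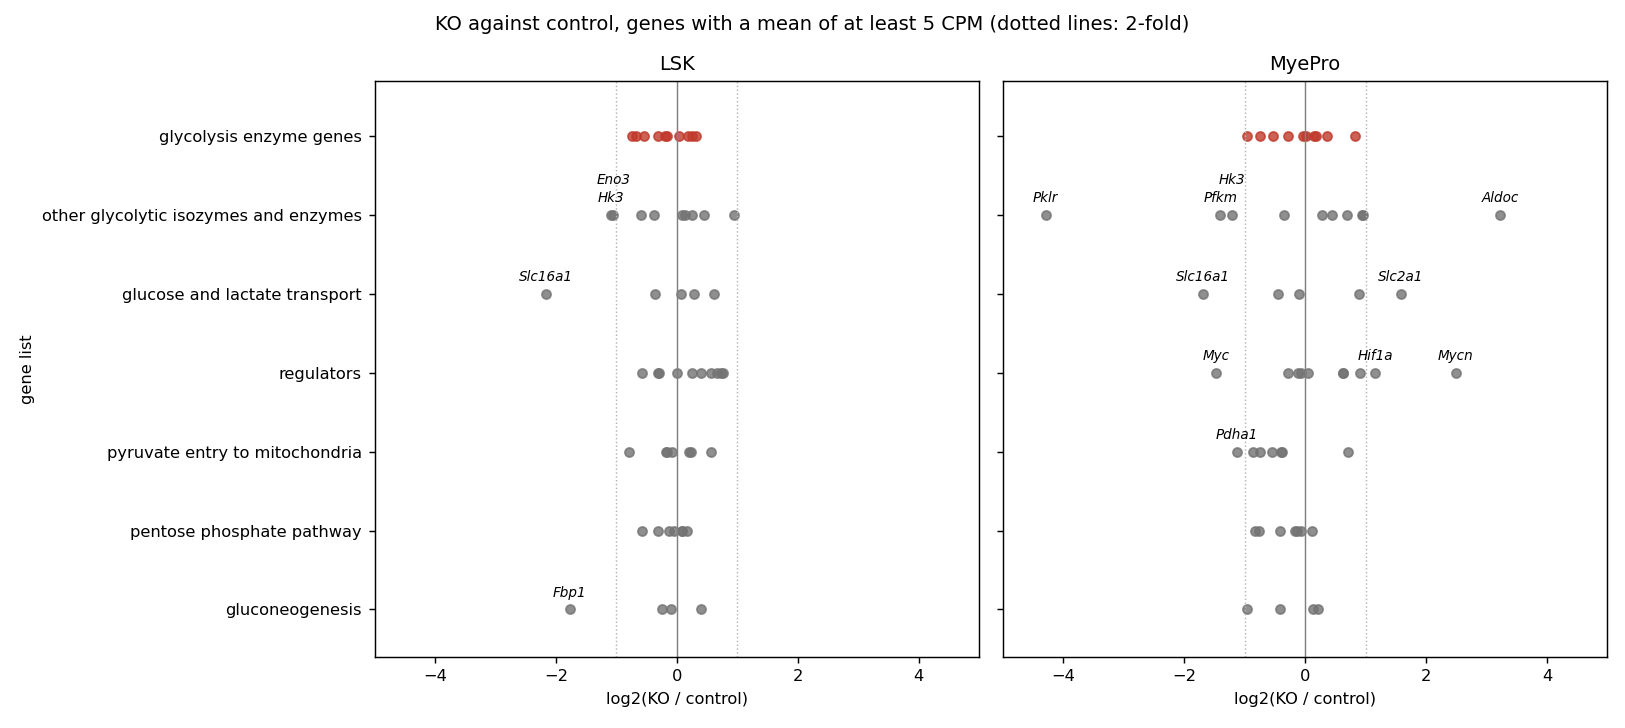
Log2 ratio of KO to control in LSK and MyePro for the 10 glycolysis enzyme genes (red) and the genes of 6 neighbouring lists (grey) that averaged 5 CPM or more. Dotted lines mark a 2-fold difference, and the named genes are those the text describes that lie past it. The red points lie within the lines in both panels, and Pklr in LSK, with 0 counts in KO, is not drawn.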

How the data were processed

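RNA was sequenced from KO and control LT-HSC (2 libraries each), LSK and MyePro cells (1 library each). The 6 ChIP-seq samples of the series were not analysed here. The deposited files hold raw gene counts, with 1 file for each library. The submitters' processing notes list CASAVA 1.8.4, TopHat2, Picard 1.126, HTSeq 0.6.0, DESeq 3.0, bedtools 2.17.0, Bowtie2, MACS 1.4.2, ChIPseeker 1.8.0 and HOMER 4.8, with build mm10, for the series as a whole. How these were used, the annotation and strandedness were not given in the sources used here, and reads of antisense neighbours and near-identical copies could be shared. Per the labels' protocols, RNA had 2 rounds of polyA selection, and LT-HSC RNA was amplified.

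Entries that name no gene, spike-in entries and an unexplained DPY30-SPKIG entry were left out of library sizes. Multiply aligned reads were 23.9% to 37.9% of file totals and reads without a feature 2.40% to 26.0%. Of 39179 LT-HSC IDs, 37607 (96.0%) matched a symbol. Gene positions and promoter windows are from RefSeq for GRCm38.p6. LT-HSC was tested with edgeR 4.0.16 in R 4.3.3 (TMM, genes reaching 1 CPM in 2 or more of the 4 libraries, quasi-likelihood test, two-sided, Benjamini-Hochberg adjusted p under 0.05, no block). The SE is the log2 fold change divided by the square root of its F statistic. All 10 members passed this filter.

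LSK and MyePro were scaled together by TMM and compared as log2 ratios with a prior count of 2, and genes averaging 5 CPM or more were counted at 2-fold. Their 95% intervals are exact conditional binomial intervals for counting error, and shares have exact binomial ones. The methods were tested on simulated data.

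The labels give each LT-HSC library a transplant number, which pairs KO with control. Deviations from the group means had a correlation of 0.285 between paired libraries over 12844 genes, with 2 pairs. The named genes were the 10 members, Dpy30, Xist and 4 Y-linked genes, and from each neighbouring list up to 6 genes past the LT-HSC threshold or past 2-fold in any LSK or MyePro comparison, or else the 2 most highly expressed. Pfkp, Mpc1 and Gapdh were named after their values were seen. The members and lists were chosen with earlier results of these data known. Alternatives were the replicate block, library totals, RLE size factors, no filter or a 1 CPM mean filter, DESeq2 1.42.0, limma-voom (limma 3.58.1), leaving out mitochondrially encoded genes or each LT-HSC library, a prior count of 0.5, a 1.5-fold threshold and counts thinned to the shallower library. Adding named copies to Pgam1, Pgk1 and Ldha was chosen after seeing the data.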

Additional observations from a re-analysis of the deposited data

Results flagged for a closer look

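Pgk1 stood apart because KO was lower than control in LSK (log2 ratio -0.17) and higher in MyePro (0.14), a difference of 0.31 between the genotype effects. The same gene was higher in MyePro than in LSK in KO cells (0.20) and lower in control cells (-0.10), which rests on the same 4 libraries and gives the same difference of 0.31. Pkm was higher in MyePro than in LSK in KO cells (0.25) and lower in control cells (-0.38), a difference of 0.63. Hk1 was lower in MyePro than in LSK in KO cells (-0.16) and higher in control cells (0.26), a difference of -0.42. With 1 library per group none of these differences was tested across samples. The signs stayed opposite under each other scaling tried and after thinning. The level filter cannot alter a gene's ratio, and the prior count hardly moves it at counts this high. Those settings were therefore no check on the signs. With library totals the Pgk1 ratio in LSK was -0.01 and in MyePro 0.22. No LT-HSC group had enough libraries to single out a sample.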

How the results depend on the processing

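The count of members past the threshold stayed at 0 in LT-HSC under every alternative run, and the count past 2-fold stayed at 0 in LSK and MyePro under every alternative but the 1.5-fold threshold. At 1.5-fold, 2 members were lower in KO LSK, and 1 was higher and 2 were lower in KO MyePro. The 1 CPM mean filter could not change the LSK and MyePro counts, because every member already averaged 5 CPM or more. Genes called in LT-HSC over all genes numbered 2, both Y-linked (Kdm5d and Eif2s3y), and 4 with the replicate block, all sex-linked (those 2, Ddx3y and Xist), 4 with library totals, 4 without the filter, 14 with DESeq2, 1 with limma-voom and 0 without mitochondrially encoded genes. Leaving out 1 library at a time gave 0 to 5, with 5 without the KO library of transplant 2 and 0 without either control. The replicate block changed no call of a member. The members' LT-HSC median ran from -0.16 to 0.35 when 1 library was left out.

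LT-HSC signs of members were fragile, none being called. With library totals, under which the all-gene median was -0.35, the log2 fold changes were -0.47 for Hk2, -0.066 for Tpi1, -0.029 for Pgk1, -0.12 for Pgam1 and -0.27 for Ldha, and with limma-voom Hk2 was at -0.037. Leaving out 1 library at a time gave ranges of -0.37 to 0.34 for Hk2, -0.43 to 0.038 for Pfkl, -0.69 to 0.36 for Aldoa, -0.081 to 1.46 for Tpi1, -0.031 to 0.50 for Pgam1 and -0.077 to 0.44 for Ldha. The members' medians with library totals were -0.46 in LT-HSC, -0.023 in LSK, 0.072 in MyePro, 0.082 for MyePro against LSK in KO and 0.17 in control. With thinned counts they were -0.10 in LSK and 0.19 for MyePro against LSK in control. The cause of these shifts was not tested. In LSK and MyePro counting error is small, and the lack of replicates sets the limit.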

Other observations

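Gapdh, the enzyme gene between Tpi1 and Pgk1 in the pathway and not one of the 10, had a pattern of values unlike theirs. It stood at 168 and 204 CPM in the LT-HSC libraries labelled KO and 236 and 207 CPM in the LT-HSC controls. In LSK it stood at 41.4 CPM in KO and 37.5 CPM in control, and in MyePro at 42.7 CPM in KO and 31.3 CPM in control. Its values were thus higher in LT-HSC than in LSK and MyePro, while those of all 10 members were lower in LT-HSC. These sets were scaled apart and listed by different identifiers, so the levels themselves are not comparable between them, and the cause of the contrast was not tested.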
